A study of Homo sapiens with 6 samples.

Results

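The genes described here are 35 genes of glucose use and of the response to low oxygen, chosen by their role: the glucose carriers, the enzymes of each glycolytic step, the enzymes and carriers that decide the fate of pyruvate, and genes of the hypoxia-inducible factor (HIF). The choice was made with earlier results of these data known. All 35 were found by symbol among the 26485 rows of the deposited count table. Of these, 34 passed the filter on low counts and were tested among 12107 genes, and the remaining 1, ADM, was not tested. They were followed in H9 cells, an established human T lymphoma line that the labels describe as cutaneous, given PA4 at 1 µM for 24 h (3 libraries) or the vehicle DMSO for the same time (3 libraries). The series title calls the compound tested a berbamine derivative, and PA4 is its code name. The study set the expression profiles side by side to look for the basis of the cell death that PA4 causes in H9 cells. Nothing in the labels says whether replicate libraries were grown as separate cultures, and the p-values therefore describe the spread between these libraries alone, some or all of which may be technical.

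Glycolysis turns glucose into pyruvate in 10 enzymatic steps, and cells that grow fast often turn most of that pyruvate into lactate and export it, even where oxygen is present. HIF, a pair of an oxygen-regulated subunit such as HIF1A and the stable subunit ARNT, raises transcription of glucose carriers, most glycolytic enzymes, the angiogenic factor VEGFA and many other genes when oxygen is short. Oxygen acts on HIF1A protein through the prolyl hydroxylases EGLN1 to EGLN3, which mark it for destruction, so the level of its RNA need not follow its activity. T cells use the same genes when they are activated, with SLC2A1 and SLC2A3 as their main glucose carriers.

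HIF binds a short core that contains ACGTG or GCGTG, and 4 members whose promoter windows hold the first of these are shown because they are textbook HIF targets. They were picked after the values were seen. Each window is RefSeq sequence of GRCh38.p14 from 250 bases before to 50 bases after an annotated start, 5′ to 3′ in the direction of the gene, and capitals mark ACGTG or its reverse complement CACGT.
ALDOC, chr17:28576846-28577145, strand -: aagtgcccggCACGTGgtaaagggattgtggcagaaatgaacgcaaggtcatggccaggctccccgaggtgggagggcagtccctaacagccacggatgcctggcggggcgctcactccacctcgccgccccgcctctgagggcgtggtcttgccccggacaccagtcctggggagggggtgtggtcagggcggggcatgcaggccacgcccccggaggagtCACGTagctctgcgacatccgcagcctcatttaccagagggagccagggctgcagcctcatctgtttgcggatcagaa
PGK1, chrX:78103998-78104297, strand +: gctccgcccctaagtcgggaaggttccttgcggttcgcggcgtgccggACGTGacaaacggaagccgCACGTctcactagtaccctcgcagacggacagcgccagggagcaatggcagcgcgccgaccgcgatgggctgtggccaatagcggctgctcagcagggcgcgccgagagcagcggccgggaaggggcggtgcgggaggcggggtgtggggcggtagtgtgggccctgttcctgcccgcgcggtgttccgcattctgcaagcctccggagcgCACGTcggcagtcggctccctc
LDHA, chr11:18394313-18394612, strand +: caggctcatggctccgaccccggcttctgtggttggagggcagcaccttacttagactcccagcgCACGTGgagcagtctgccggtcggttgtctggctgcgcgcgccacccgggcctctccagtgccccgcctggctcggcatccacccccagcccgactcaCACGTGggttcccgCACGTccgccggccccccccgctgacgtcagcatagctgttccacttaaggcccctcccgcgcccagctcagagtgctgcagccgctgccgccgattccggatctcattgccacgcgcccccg
BNIP3, chr10:131981874-131982173, strand -: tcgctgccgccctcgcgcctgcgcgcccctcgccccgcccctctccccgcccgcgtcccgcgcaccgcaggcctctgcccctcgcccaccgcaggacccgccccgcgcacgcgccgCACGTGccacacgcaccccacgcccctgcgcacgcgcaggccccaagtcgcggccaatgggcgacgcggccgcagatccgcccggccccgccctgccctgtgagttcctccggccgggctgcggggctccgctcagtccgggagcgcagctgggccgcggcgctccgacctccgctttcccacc
The LDHA window is the one of its 2 windows with more matches. ALDOC, LDHA and BNIP3 each hold a CACGTG palindrome, which is also the E-box bound by MYC and other factors and counts as a match on both strands. Of 30 members with an entry in the promoter table, 18 held ACGTG on either strand in 1 or more of their windows. A share per gene over all genes is not given here, so that count has no background. Counted by window, ACGTG was in 37.9% of 58 member windows against 21.4% of 35116 windows of all genes. Known HIF targets were among the genes chosen by role, so a higher share follows in part from the choice and is no finding. The windows of all genes were not matched to those of the members in base composition. SLC2A3, VEGFA, NDRG1, PFKFB2 and SLC16A1 had no entry and are in none of these counts. GCGTG, or its reverse CACGC, was in 41.4% of member windows against 36.5% of all windows, and CACGTG in 13.8% against 7.26%. Genes with several starts have several windows, and a match is a run of letters, not a bound site. The 4 genes printed were not called: ALDOC stood at a log2 fold change of 0.22, PGK1 at -0.0073, LDHA at 0.039 and BNIP3 at -0.087.

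Library totals were 18282212 to 22875191 counts with PA4 and 19033853 to 19260434 counts in control. Among T cell markers, CD3E had 2099 to 2529 counts per library and CCR4 1808 to 2280, whereas CD4 had 6 to 12 and CD2 at most 1. Of 5 markers of pluripotent stem cells and 5 of myeloid cells, all had at most 20 counts in every library. The 5 epithelial markers summed to 140 to 142 CPM with PA4 and 133 to 137 CPM in control, a sum carried mainly by EPCAM. CDH1 had 127 to 178 counts per library, while KRT8, KRT18 and KRT19 had at most 5. Some markers of other lists had counts too. The B cell markers CD79A and CD79B had 178 to 260 and 151 to 227, the natural killer marker GNLY 126 to 169, and the fibroblast marker COL1A1 12 to 26. The part of these markers in the results below was not tested. Over the 8 marker lists edgeR called 0 genes, and EPCAM alone had an unadjusted p under 0.05. CPM are counts per 1000000 reads after TMM scaling. A gene was called at a Benjamini-Hochberg adjusted p under 0.05 in edgeR's quasi-likelihood test over all 12107 genes.

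Across the members, 2 genes rose with PA4 and 0 fell in edgeR's test. They were SLC2A3, the gene of the high-affinity glucose carrier GLUT3, and VEGFA, which encodes the vascular endothelial growth factor. Both changes were small, at 1.21-fold and 1.25-fold. The other 32 tested members were not called, and these include each enzyme of the 10 glycolytic steps, HIF1A and its oxygen sensors EGLN1 and EGLN3. The 2 calls are 2 of 34, where 0.215% of all tested genes were called higher and 0.0165% lower. Because the members were chosen with earlier results of these data known, this comparison is descriptive and not independent evidence. The members were also measured more closely, with a median SE of 0.047 against 0.069 over all tested genes. With no adjustment of p, 6 members were higher with PA4 at p under 0.05 and 1 was lower, beside 2.69% and 2.6% of all tested genes. In 4 members all PA4 libraries lay above all control libraries and in 1 they lay below, against 5.91% and 5.31% of all tested genes. The median log2 fold change of the tested members was 0.014, with 22 positive values and 12 negative, beside a median of -0.0040 and positive values in 47.6% of all tested genes.

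**Figure D1:**
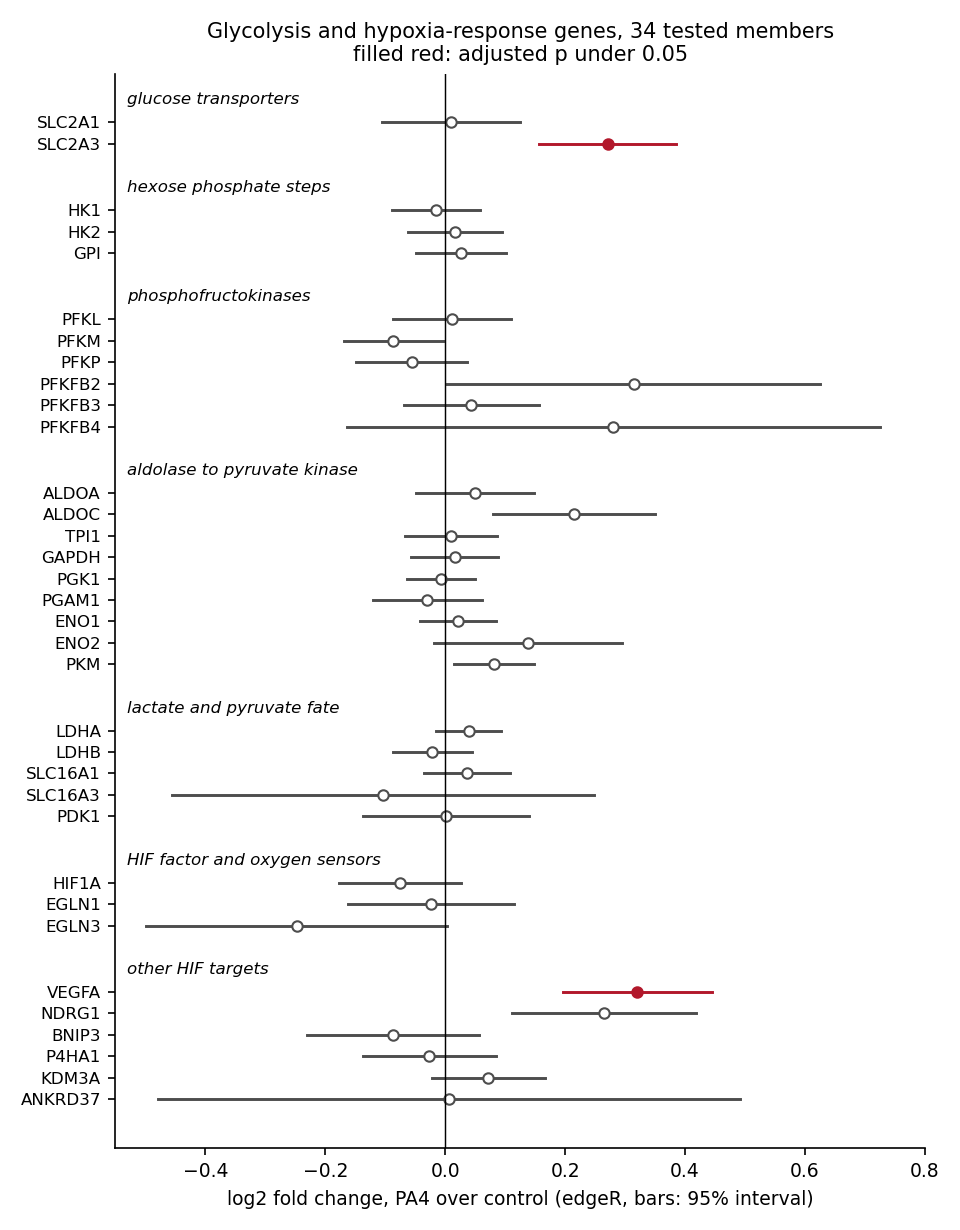
Log2 fold change of PA4 over control for the 34 tested members (points) with 95% intervals (bars), grouped by role, with called genes filled. SLC2A3 and VEGFA stand to the right of 0, and most enzymes of glycolysis lie within 0.1 of it.

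Glucose enters through 2 member carriers, of which SLC2A3 rose and SLC2A1 was not called. SLC2A3, on chromosome 12 at 7919230 to 7936187 of GRCh38, had 49.9, 52.8 and 52.9 CPM with PA4, against 42.2, 42.1 and 44.7 CPM in control. The lowest PA4 library was above the highest control library. The log2 fold change was 0.27 ± 0.05 (SE), with a 95% interval of 1.12-fold to 1.31-fold and an edgeR adjusted p of 0.0499, which is just under the threshold. The call was lost with library size alone, at an adjusted p of 0.0635, with limma-voom at 0.0501 and with counts thinned to equal depth at 0.161. It was also lost without PA4 replicate 1 (edgeR adjusted p 0.146), PA4 replicate 2 (0.397), PA4 replicate 3 (0.261) or control replicate 2 (0.427). Its log2 fold change in these 7 fits stayed between 0.25 and 0.30. SLC2A14, a near-identical neighbour of SLC2A3, had 0 counts in each library, and how reads common to both were counted is not given in the sources used here.

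SLC2A1, the gene of the widely expressed carrier GLUT1, had 52.5, 52.6 and 49.8 CPM with PA4, against 53.1, 52.5 and 48.4 CPM in control. The groups overlapped, and the 95% interval of its change ran from 0.930-fold to 1.09-fold (log2 0.0097 ± 0.054, SE). Scaled for gene length, SLC2A3 made up 47.0%, 48.3% and 49.8% of the SLC2A1 and SLC2A3 transcripts with PA4, against 42.5%, 42.8% and 46.3% in control. The groups did not overlap, and the mean share was 4.49 percentage points higher with PA4. An exact two-sided permutation test gave p = 0.1, the smallest that 3 libraries against 3 allow, and 0.175 after adjustment over the 7 pairs of members compared in this way.

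**Figure D2:**
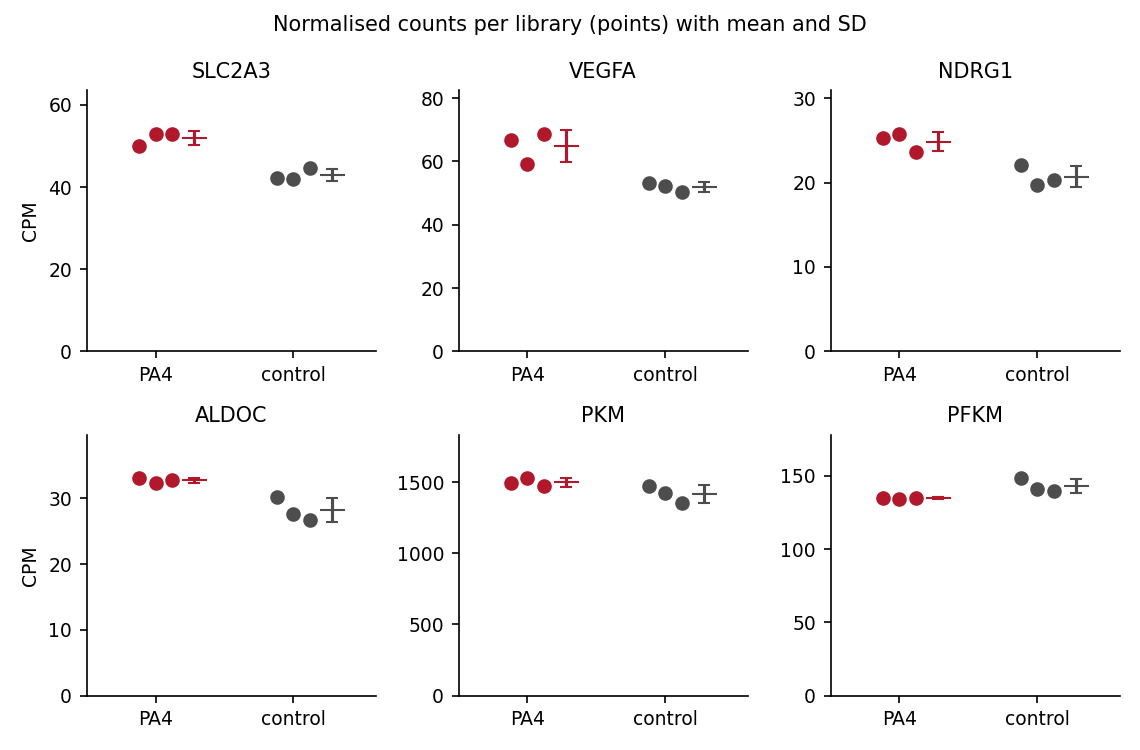
CPM in each library (points) with the mean and SD (bars) for 6 members, PA4 at left and control at right, on axes from 0. In SLC2A3, VEGFA, NDRG1 and ALDOC the PA4 libraries lie above the control libraries, in PFKM below, and in PKM the groups overlap.

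The enzymes that trap and rearrange glucose showed no called change. The hexokinase genes HK1 and HK2, whose enzymes phosphorylate glucose, averaged 198 ± 0.663 and 164 ± 3.06 CPM with PA4, and 199.8 ± 3.47 and 162 ± 3.24 CPM in control (SD, n = 3 each). Their 95% intervals ran from 0.940-fold to 1.04-fold for HK1 and from 0.958-fold to 1.07-fold for HK2. GPI, which makes fructose 6-phosphate, stood at 428 ± 15.3 CPM with PA4 and 421 ± 13.5 CPM in control (SD, n = 3 each). Its log2 fold change was 0.027 ± 0.035 (SE). The share of HK2 in the hexokinase pair was 33.3 ± 0.423% with PA4 and 32.8 ± 0.765% in control, with an exact two-sided permutation p of 0.4 for n = 3 each.

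Phosphofructokinase, the committed step, is built from the liver, muscle and platelet subunits encoded by PFKL, PFKM and PFKP. PFKM had 134.9, 134.0 and 135.0 CPM with PA4, against 148.3, 141.0 and 139.7 CPM in control. The PA4 libraries were all below the control libraries, and it was the member with no overlap in the downward direction. Its log2 fold change was -0.087 ± 0.039 (SE), with an unadjusted p of 0.0402 and an edgeR adjusted p of 0.941, so it was not called. PFKM shared 8.58% of its exon bases with SENP1 on the opposite strand, and whether strands were told apart in counting is not known. PFKP and PFKL stood at log2 fold changes of -0.056 ± 0.044 and 0.012 ± 0.047 (SE), and the share of PFKP in that pair was 69.5%, 69.7% and 68.7% with PA4, against 70.1%, 70.7% and 70.0% in control. Those shares did not overlap (exact two-sided permutation p = 0.1, or 0.175 adjusted over the pairs).

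The PFKFB genes encode the bifunctional enzymes that set the level of fructose 2,6-bisphosphate, the main activator of phosphofructokinase. PFKFB3, the most abundant of the 3, averaged 50.2 ± 1.43 CPM with PA4 and 48.7 ± 1.97 CPM in control (SD, n = 3 each). PFKFB2 had 8.27, 6.89 and 6.19 CPM with PA4, against 5.54, 4.68 and 6.98 CPM in control, so the groups overlapped. Its log2 fold change of 0.31 ± 0.15 (SE) was close in size to that of VEGFA, but its 95% interval ran from 1.003-fold to 1.54-fold and its edgeR adjusted p was 0.943. PFKFB4, at 1.78 ± 0.171 CPM with PA4 and 1.47 ± 0.238 CPM in control (SD, n = 3 each), had an interval of 0.892-fold to 1.65-fold. PFKFB2 shared 3.09% of its exon bases with YOD1 on the opposite strand, a gene with 5685 counts over all libraries, and the doubt about strands touches its low values too. At this depth a change of the size called in SLC2A3 could not be told from none in PFKFB4, whose interval holds both.

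From aldolase to pyruvate kinase no gene was called, and these RNAs include the most abundant of the members. GAPDH, the glyceraldehyde 3-phosphate dehydrogenase gene, averaged 4161 ± 119 CPM with PA4 and 4115 ± 238 CPM in control (SD, n = 3 each). ENO1, the main enolase, averaged 2985 ± 58.97 CPM with PA4 and 2941 ± 127 CPM in control (SD, n = 3 each). The 95% interval ran from 0.961-fold to 1.06-fold for GAPDH and from 0.971-fold to 1.06-fold for ENO1. TPI1, PGK1 and PGAM1, which act between aldolase and enolase, stood at log2 fold changes of 0.0098 ± 0.037, -0.0073 ± 0.027 and -0.030 ± 0.043 (SE). Rows for the pseudogenes TPI1P2, TPI1P3 and PGAM1P5 held at most 27 counts per library.

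The aldolases and enolases each have an abundant form and a form better known from brain, ALDOC and ENO2. ALDOC had 33.1, 32.4 and 32.9 CPM with PA4, against 30.2, 27.7 and 26.8 CPM in control. The PA4 libraries were close together and all above the control libraries. Its log2 fold change was 0.22 ± 0.06 (SE), with an edgeR adjusted p of 0.468, so it was not called. ALDOA had 1067, 1077 and 996 CPM with PA4, against 1098, 1006 and 930 CPM in control, and its groups overlapped. Scaled for length, ALDOC made up 5.77 ± 0.260% of the pair with PA4 and 5.17 ± 0.127% in control (SD, n = 3 each), with an exact two-sided permutation p of 0.1, or 0.175 adjusted over the pairs. ENO2 averaged 25.1 ± 0.815 CPM with PA4 and 22.8 ± 1.89 CPM in control (SD, n = 3 each), with overlapping groups and a log2 fold change of 0.14 ± 0.07 (SE).

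PKM, the pyruvate kinase gene, had 1494, 1527 and 1470 CPM with PA4, against 1472, 1421 and 1350 CPM in control. The lowest PA4 library was just below the highest control library. The log2 fold change of 0.08 ± 0.03 (SE) had an unadjusted p of 0.0190 and an edgeR adjusted p of 0.829. In all, the 15 enzyme genes of the 10 steps took 1.30%, 1.31% and 1.25% of all counts with PA4, against 1.33%, 1.27% and 1.21% in control, and these shares overlapped. The 95% interval lay within 1.25-fold in both directions for 14 of these 15 genes (93.3%) and for 71.7% of all tested genes. The median SE was 0.037 for the 15 genes and 0.069 for all tested genes. Narrower intervals alone raise such a share, so it does not show that these genes were more stable than others.

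**Figure D3:**
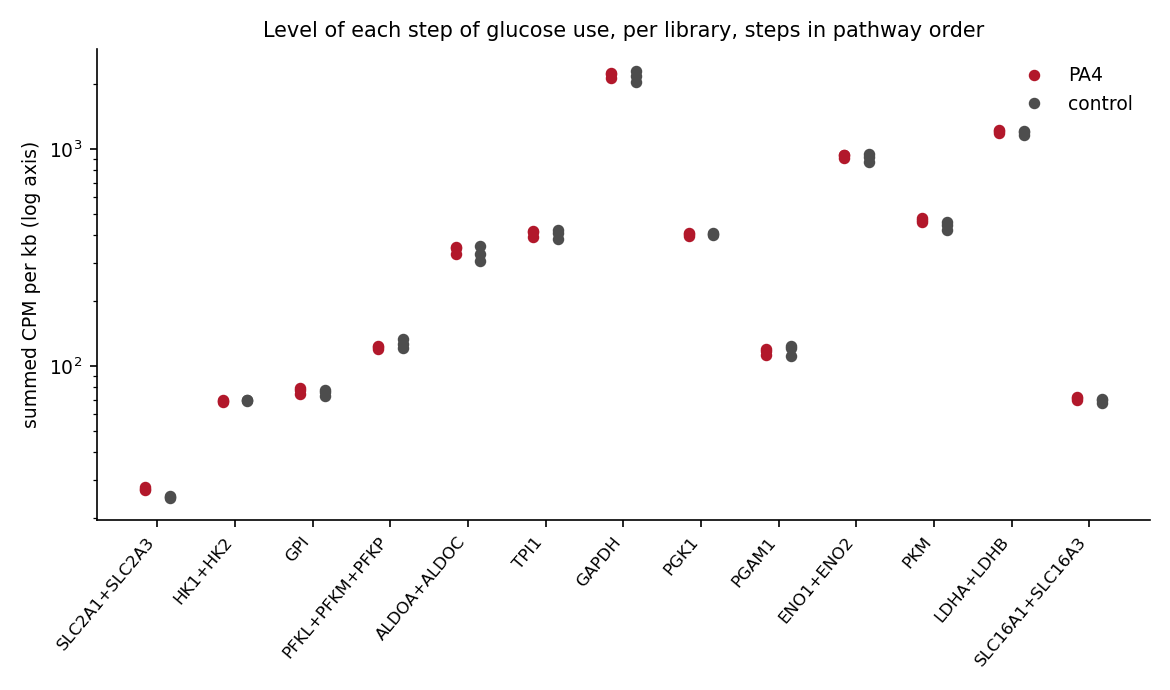
Summed CPM per kb of the members of each step from glucose transport to lactate export, for each library, on a log axis. GAPDH stands highest, at a mean of 2199 with PA4 and 2175 in control, and the glucose carriers lowest, at 27.2 with PA4 and 24.9 in control.

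Compared per length, the steps spanned nearly 2 orders of magnitude on the scale of summed CPM per kb. GAPDH was highest, followed by lactate dehydrogenase, at 1209 ± 15.6 with PA4 and 1195 ± 28.7 in control, and enolase, at 928 ± 18.2 with PA4 and 913 ± 39.7 in control (SD, n = 3 each). Pyruvate kinase, triose phosphate isomerase, phosphoglycerate kinase and aldolase lay together at 345 to 471 with PA4 and 331 to 445 in control. Triose phosphate isomerase and phosphoglycerate kinase, at 409.6 ± 13.6 and 404.6 ± 5.04 with PA4, did not differ beyond their spread between libraries. That spread does not cover the choice of gene length. The deposited lengths were 1856 bases for TPI1 and 2423 for PGK1, whereas their GENCODE exons cover 2700 and 5512 bases. The order of the steps can therefore depend on the lengths used. The carriers, hexokinase and GPI were the lowest, with hexokinase at 69.2 ± 0.461 with PA4 and 69.4 ± 0.578 in control, and the lactate carriers at 70.9 ± 1.23 with PA4 and 69.3 ± 1.43 in control (SD, n = 3 each). The ratio of group means lay between 0.965 for phosphofructokinase and 1.09 for glucose transport over the 13 steps. These levels are those of RNA in a bulk sample, where fewer cells of a kind and less RNA per cell cannot be told apart.

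The genes that decide the fate of pyruvate were not called. LDHA, the lactate dehydrogenase subunit that favours lactate production, had 2037, 1992 and 2006 CPM with PA4, against 1915, 1959 and 2001 CPM in control. LDHB, which favours the reverse reaction, had 683, 661 and 679.6 CPM with PA4, against 659.9, 700.0 and 693 CPM in control. Each gene overlapped between groups, but the share of LDHB in the pair did not, at 34.8%, 34.6% and 35.1% with PA4, against 35.5%, 36.3% and 35.6% in control. That difference was -0.956 percentage points, with an exact two-sided permutation p of 0.1, or 0.175 adjusted over the pairs. SLC16A1, the lactate carrier MCT1, stood at 323 ± 6.43 CPM with PA4 and 315 ± 8.58 CPM in control (SD, n = 3 each). SLC16A3, the carrier MCT4 that is known as a HIF target, was far lower, at 4.19 ± 0.542 CPM with PA4 and 4.53 ± 1.04 CPM in control (SD, n = 3 each), with an interval of 0.730-fold to 1.19-fold. It shared 5.36% of its exon bases with CSNK1D on the opposite strand, which had 13367 counts over all libraries, so its low values carry the same doubt about strands. PDK1, a kinase that shuts pyruvate dehydrogenase and is known as a HIF target, averaged 24.4 CPM in each group and had a log2 fold change of 0.0020 ± 0.065 (SE).

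**Figure D4:**
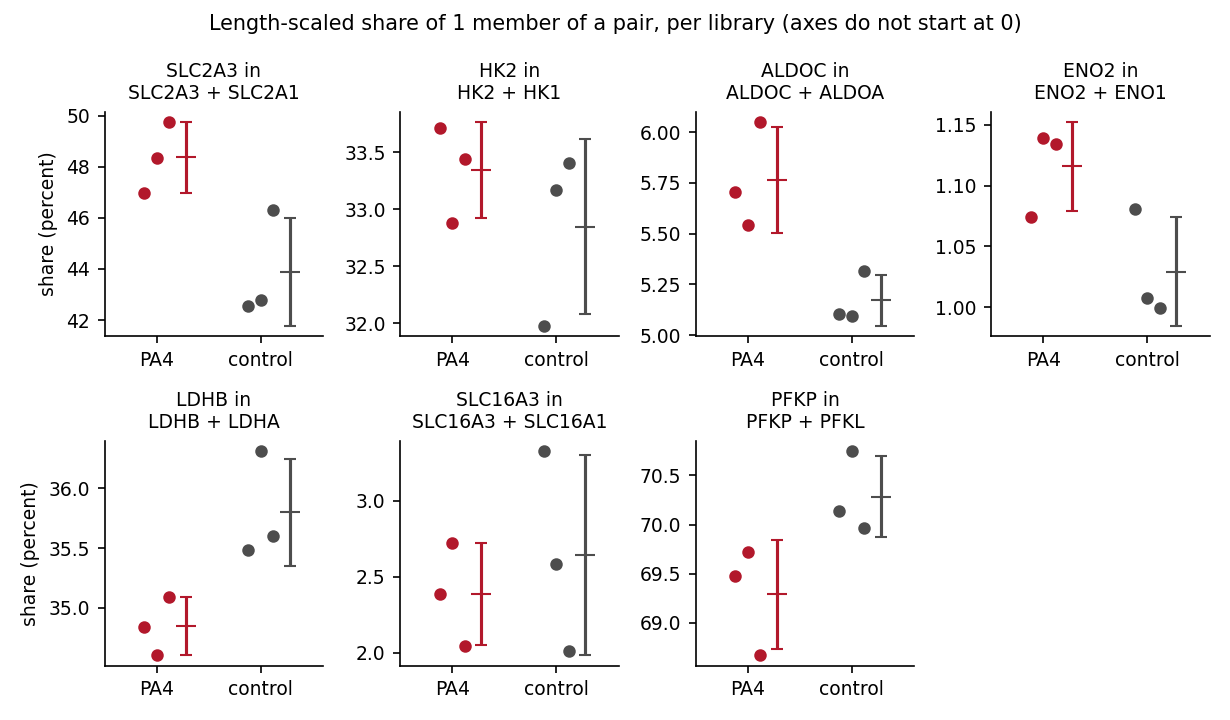
Length-scaled share of 1 gene in each of 7 pairs, per library (points) with the mean and SD (bars), PA4 at left and control at right. The groups do not overlap for SLC2A3, ALDOC, LDHB and PFKP, where the exact p is 0.1, or 0.175 adjusted over the 7 pairs. With 3 libraries against 3, groups that do not overlap and an exact p of 0.1 are the same fact. Other gene pairs were not compared, so there is no background for it.

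HIF1A, the oxygen-regulated subunit, had 119.9, 115.4 and 123.0 CPM with PA4, against 119.1, 123.4 and 135.0 CPM in control. The groups overlapped, with an interval of 0.884-fold to 1.02-fold. The prolyl hydroxylase genes EGLN1 and EGLN3, of which EGLN3 is itself a HIF target, stood at log2 fold changes of -0.024 ± 0.065 and -0.25 ± 0.12 (SE). EGLN2, which is not a member, had at most 2 counts per library and was not tested. EGLN3 was low, with 7.03, 5.48 and 5.81 CPM with PA4, against 7.56, 7.02 and 7.14 CPM in control. Its groups overlapped because PA4 replicate 1 lay just above control replicate 2, and its edgeR adjusted p was 0.949.

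Among the other HIF targets, VEGFA was the member with the lowest p. VEGFA, on chromosome 6 at 43770211 to 43786487 of GRCh38, had 66.7, 59.3 and 68.7 CPM with PA4, against 53.2, 52.1 and 50.3 CPM in control. The lowest PA4 library, replicate 2, was above the highest control library. The log2 fold change was 0.32 ± 0.06 (SE), with a 95% interval of 1.15-fold to 1.36-fold and an edgeR adjusted p of 0.0261. DESeq2's Wald test and limma-voom also called it, at adjusted p-values of 0.00142 and 0.0336. The call was lost without PA4 replicate 1 (edgeR adjusted p 0.249), PA4 replicate 3 (0.204) or control replicate 2 (0.197), and its log2 fold change in those fits stayed between 0.28 and 0.32. DESeq2 called 2 members, where it called 0.289% of all tested genes, and limma-voom called VEGFA, where it called 0.223%.

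NDRG1, a differentiation-related gene induced by low oxygen, had 25.3, 25.7 and 23.6 CPM with PA4, against 22.1, 19.8 and 20.3 CPM in control. The groups did not overlap, and the log2 fold change of 0.27 ± 0.07 (SE) was close to that of SLC2A3. Its edgeR adjusted p was 0.314, and it was not called. BNIP3, a mitophagy receptor, averaged 23.4 ± 0.790 CPM with PA4 and 24.8 ± 1.00 CPM in control (SD, n = 3 each), with an interval of 0.853-fold to 1.04-fold. P4HA1, a collagen prolyl hydroxylase, and KDM3A, a histone demethylase, stood at log2 fold changes of -0.027 ± 0.052 and 0.07 ± 0.04 (SE). ANKRD37, an ankyrin repeat gene, had 24 to 31 counts per library with PA4 and 23 to 26 in control, and its interval of 0.718-fold to 1.41-fold is wide. It shares 35.2% of its exon bases with UFSP2 on the opposite strand. ADM, the adrenomedullin gene, had 5, 3 and 1 counts with PA4 and 5, 2 and 4 in control, which is too few to compare.

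Libraries of 1 group differed among themselves in a way that touched these genes. Over the 34 tested members, the difference between control replicates 1 and 3, as a log2 ratio, increased with the GC content of the transcripts, with a Spearman rho of 0.82, and over 11438 tested genes with a rho of 0.65. The points share the same 2 libraries and are not independent. ALDOA was at 1098 CPM in control replicate 1 and 930 CPM in control replicate 3, a log2 ratio of 0.24, and HIF1A was at 119.1 and 135.0 CPM, a log2 ratio of -0.18. For the called genes the ratio was -0.084 for SLC2A3 and 0.082 for VEGFA. That it is smaller than the change with PA4 is no separate result, since a call requires a small spread within groups. Among PA4 libraries SLC2A3 ran from 49.9 to 52.9 CPM and VEGFA from 59.3 to 68.7 CPM. With offsets for GC content in the same edgeR test, 5 members were called, all higher with PA4, where 1.05% of all tested genes were called. These were SLC2A3, VEGFA, NDRG1 (adjusted p 0.0155), ALDOC (0.0251) and PKM (0.00617), and their log2 fold changes were 0.27, 0.33, 0.27, 0.22 and 0.09.

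**Figure D5:**
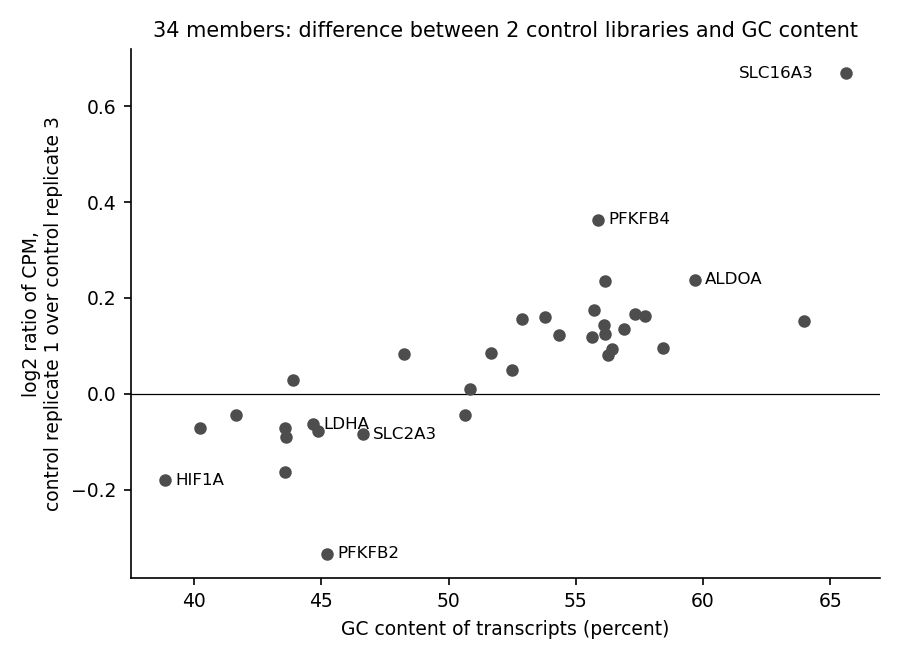
Log2 ratio of CPM in control replicate 1 over control replicate 3 (y) against GC content of the transcripts in percent (x) for the 34 tested members (points). HIF1A, the member with the lowest GC content, lies below 0 and the GC-rich ALDOA above it, while PGK1 and EGLN3 lie above 0 among mostly negative GC-poor members.

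Around the members, 108 further genes of 6 lists were read from the same test, of which 69 passed the filter on low counts. Of these 69, edgeR, DESeq2 and limma-voom each called 0, and before adjustment edgeR gave 2 genes higher and 3 lower at p under 0.05. HIF subunits and regulators had 0 called of 11 tested with a median log2 fold change of -0.0054, and their lowest p was that of the coactivator gene EP300, at 0.08 ± 0.04 (SE). Further HIF targets had 0 called of 21 tested with a median of 0.0077, and the lowest p was that of WSB1, part of a ubiquitin ligase, at 0.08 ± 0.05 (SE). The log2 fold changes of that list ran from -0.13 to 0.19, with 12 positive and 9 negative. CA9, the carbonic anhydrase gene often used as a marker of hypoxia, had 0 counts in each library, as did LOX and PLOD2.

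Other glycolytic isozymes and branch enzymes had 0 called of 10 tested. FBP2, a fructose bisphosphatase that acts against phosphofructokinase, had 1.98, 1.05 and 1.64 CPM with PA4, against 0.570, 0.936 and 0.787 CPM in control. The PA4 libraries were all above the control libraries at this low level, with a log2 fold change of 1.01 ± 0.29 (SE) and an edgeR adjusted p of 0.451. Other carriers and glucose sensors had 0 called of 8. TXNIP, a glucose-induced protein that restrains glucose uptake, had 107.3, 106.8 and 111.8 CPM with PA4, against 96.7, 98.6 and 97.3 CPM in control. Its groups did not overlap, with a log2 fold change of 0.16 ± 0.04 (SE), an edgeR adjusted p of 0.272 and an adjusted p of 0.00726 with offsets for GC content. FBP2 was at 0.0925 in the edgeR test with those offsets. Both genes had the lowest p of their lists, and such a pick favours groups that do not overlap. Of the 69 further genes tested, 7 had all PA4 libraries above control and 2 had all below, beside 5.91% and 5.31% of all tested genes.

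Pyruvate entry into mitochondria had 0 called of 12 tested, with a median of 0.0029. The lowest p of that list was that of PDK2, a second pyruvate dehydrogenase kinase. It had 10.6, 9.74 and 10.96 CPM with PA4, against 13.6, 12.1 and 11.4 CPM in control. The groups did not overlap, and the edgeR adjusted p was 0.827, or 0.241 with offsets for GC content. The pentose phosphate pathway, which branches off after hexokinase, had 0 called of 7 tested with a median of 0.046. Its lowest p was that of PGLS, the lactonase, which stood at -0.21 ± 0.10 (SE) with overlapping groups.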

How the data were processed

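Polyadenylated RNA of 6 H9 libraries was sequenced. The authors deposited raw counts of reads per gene, 1 column per library without normalization or pooling, and gene lengths in bases. Trimmomatic 0.39, fastp 0.23.2, STAR 2.7.9a and featureCounts of Subread 1.6.4, on hg38 (GRCh38), are named in the submitters' processing notes. The annotation and strand setting were not given in the sources used here.

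Counts were tested in R 4.3.3 with edgeR 4.0.16 over all genes kept by filterByExpr, with TMM scaling (factors within 0.329% of 1), glmQLFit and glmQLFTest, two-sided, without covariates, PA4 over control, and Benjamini-Hochberg adjustment over 12107 genes. The procedure was tested on simulated data, which were drawn without the effect of GC content seen in these libraries. Standard errors and 95% intervals come from the F statistic and its degrees of freedom, and cover the spread between libraries. CPM per kb used the deposited lengths. Shares of pairs were compared with exact permutation tests (scipy 1.17.1). Alternatives were DESeq2 1.42.0, limma-voom (limma 3.58.1), other scaling, no filter, a replicate block, GC offsets, thinned counts and leaving out each library. GC content came from GENCODE release 29 transcripts, for 94.5% of tested genes, gene coordinates and promoters from RefSeq.

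Members and lists were chosen with earlier results of these data known. All members are named, and from each further list the called genes and the 1 gene with the lowest p; CA9, LOX and PLOD2 were named after their values were seen. No libraries were treated as copies: within a group, each pair gave a chi-square of 1.48 to 6.81 per degree of freedom, above sampling noise.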

Additional observations from a re-analysis of the deposited data

How the results depend on the processing

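Depth limits the low members: PFKFB2, PFKFB4, SLC16A3, EGLN3 and ANKRD37 had fewer than 10 CPM and wide intervals, and ADM was not tested. Over 15 alternative settings, 493 of 510 member values kept their side of the threshold, 10 lost a call (SLC2A3 and VEGFA) and 7 gained one (ALDOC, NDRG1, PKM and ALDOA). Most of these values belong to members that were not called, so the total says little about how stable the 2 calls are. In the 6 fits that left out 1 library, SLC2A3 kept its call in 2 and VEGFA in 3. SLC2A3 and VEGFA never changed sign. All their PA4 libraries lay above all control libraries, so leaving out a library could hardly reverse them. Of the members not called, 14 changed sign in 1 or more settings. The largest reported value among these was -0.10 on the log2 scale for SLC16A3, which ranged from -0.25 to 0.08 over the settings. The cause of these changes was not tested.

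Against 28 genes called, 26 higher and 2 lower, no low-count filter gave 62, the replicate block 59, GC offsets 127, both of these together 175, and leaving out 1 library 17 to 74 (74 without control replicate 1, 17 without control replicate 2, 18 without PA4 replicate 1). The 28 genes were among those called in each of these settings except some that leave out a library. Against 2 members called, library size alone, limma-voom and thinned counts gave 1 each, GC offsets 5, GC offsets with the replicate block 6, and leaving out 1 library 0 to 2 (0 in the fits without PA4 replicate 1, PA4 replicate 3 and control replicate 2, and 1 in that without PA4 replicate 2). The sixth was ALDOA, at an adjusted p of 0.0493. With the replicate block alone the members called were again SLC2A3 and VEGFA, at edgeR adjusted p-values of 0.00519 and 0.000686. The replicate numbers showed little pairing by 1 check. The correlation of deviations from the group means was 0.025, -0.0084 and 0.13 for numbers 1 to 3. The deviation of a library from the mean of all 6 also varied with GC content. Its Spearman rho over genes was 0.10, 0.23 and -0.32 for PA4 replicates 1 to 3 and 0.60, -0.099 and -0.52 for control. This rho was lowest in replicate 3 of both groups, and whether the numbers mark shared handling was not tested. The share of SLC16A3 in its pair, -0.256 percentage points from control, ranged from -0.571 to 0.0872 when 1 library was left out, and it turned positive without control replicate 1. The other 6 shares kept their sign in each setting. For SLC2A3, ALDOC, LDHB and PFKP the groups did not overlap, so leaving out a library could not change the sign.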
